A study of Bos taurus with 29 samples.

Results

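Chaperones help other proteins to fold, and protein disulfide isomerases form and rearrange their disulfide bonds. Their transcripts were followed here in single cattle oocytes. The members are the genes of the deposited table whose symbols name them as J-domain proteins (DNAJA, DNAJB and DNAJC with a number), heat shock proteins (HSPA, HSPB, HSPD, HSPE, HSPH and HSP90), subunits of the CCT ring (CCT with a number, and TCP1) or disulfide isomerases (PDIA with a number). This rule, which uses names only, took 78 of 13502 genes. By textbook site of the protein, 37 are cytosolic, 18 belong to the endoplasmic reticulum (ER), 8 to mitochondria and 15 to other or uncertain sites such as the nucleus, endosomes, vesicles and cilia. HSPBP1 and HSPBAP1 enter through their names, the former as a partner of HSP70 and the latter as a partner of a small heat shock protein.

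Proteins of the HSP70 family (HSPA genes) bind unfolded stretches and release them in a cycle driven by ATP. J-domain proteins bring clients and start ATP hydrolysis, exchange factors reset the cycle, HSP90 finishes particular clients such as kinases, and the CCT ring folds actin and tubulin, the proteins of the cortex and the meiotic spindle. The ER and mitochondria carry chaperones of their own, and a fully grown oocyte keeps stored messenger RNA that is translated or removed while meiosis resumes.

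The study set oocytes at the germinal vesicle stage (GV, arrested in prophase of meiosis and freed of cumulus cells at collection) beside metaphase II oocytes from a pair of culture systems. All came from wild type cattle donors given FSH, by aspiration of follicles under ultrasound. IVM oocytes spent 22 h within their cumulus in maturation medium with 50 ng/mL EGF and 5 µg/mL FSH. CNP_IVM oocytes had 6 h of pre-maturation in that medium without EGF but with 200 nM CNP, the C-type natriuretic peptide by which follicle cells hold meiosis through cyclic GMP, and then the same 22 h, 28 h in all. CNP and the longer culture cannot be told apart, since no group had 6 h of culture without CNP. A polar body marked metaphase II.

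Each library held 1 oocyte, read from poly(A) primed RNA. Of 29 labelled samples, 22 had values in the table (7 GV, 8 IVM and 7 CNP_IVM), and the other 7 were not analysed here. Since no label gives an oocyte's donor or culture, each group counted as 1 sample, no test was made, and ranges show the spread between oocytes, not between animals. Levels are CPM, a gene's reads scaled to a library of 1000000, with library totals of 20159662 to 39340040 reads. CPM does not allow for gene length, so levels are compared between groups and not between genes. A lower share of the library can mean less of a transcript, a shorter poly(A) tail or more of other transcripts, which were not told apart.

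GV replicate 9 stood apart. Its title says GV while its treatment label says in vitro maturation, and the title decided its group here. Genes with 1 CPM or more numbered 9381 in it and 11311 to 11798 in the other 6 GV oocytes. It was the highest GV oocyte for 35 and the lowest for 32 of the 75 members that reached 1 CPM in 6 or more libraries (the filter used throughout), and values without it are given beside the described members that then cross 2-fold or zero. All 12 oocyte markers, such as ZP3 and GDF9, were above the filter. Their sum was 13896 to 20420.2 CPM in GV oocytes, 14696 to 20394.9 CPM after IVM and 13960.4 to 18778 CPM after CNP_IVM. Single markers differed in opposite directions. ZP3 averaged 3058, 644 and 172 CPM in the same order, and OOSP2 1538, 3197 and 8400 CPM. Of the 12, 4 were at least 2-fold higher and 4 lower after IVM, and 2 and 6 after CNP_IVM. For DAZL GV replicate 9 was lowest of its group, at 0.218 CPM (median 25.97 CPM), and so for DDX4, at 2.89 CPM (median 39.1 CPM). That oocyte was highest for ZP3, at 8420 CPM. Markers of cumulus and granulosa cells (15 of 19 measured, 10 past the filter) summed to 656 to 1136 CPM in GV, 349 to 661 CPM in IVM and 239 to 308 CPM in CNP_IVM oocytes, with STAR alone at 547 to 844 CPM (median 629), 175 to 452 CPM (median 326) and 78.6 to 117 CPM (median 90.8). Without STAR their sum was 71.9 to 396 CPM (mean 165), 166 to 251 CPM (mean 195) and 139 to 192 CPM (mean 171). HAS2 of the same list was higher in every matured oocyte, at 9.78 to 25.97 CPM (median 14.04) in GV oocytes, 61.1 to 94.8 CPM (median 76.6) after IVM and 98.3 to 149.6 CPM (median 115) after CNP_IVM. Of the 15, the granulosa genes FSHR, CYP11A1 and NR5A1 averaged under 1 CPM in every group. Others had their highest mean in GV oocytes. INHA averaged 15.7, 0.72 and 0.36 CPM in GV, IVM and CNP_IVM oocytes, and FST 10.4, 0.43 and 1.30 CPM. CYP19A1 averaged 4.69, 2.93 and 0.86 CPM. The GV medians of INHA and FST were 2.52 and 1.27 CPM, and both peaked in GV replicate 6, at 59.7 and 42.0 CPM. Of the 10 markers above the filter, 2 went up and 3 down by 2-fold after IVM, and 1 and 5 after CNP_IVM. Blood and vessel markers (5 of 10 measured, 2 past the filter) summed to 173 to 362 CPM, 8.42 to 46.8 CPM and 3.53 to 25.7 CPM in the same order. Most of that sum was VWF, at 160 to 336 CPM, 1.92 to 42.1 CPM and 3.53 to 25.5 CPM. CD3E was at 10.5 to 64.7 CPM in GV oocytes, and PECAM1, HBA and CD68 averaged under 1 CPM in every group. The part of other cells in the results below was not tested.

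The differences below are log2 differences of group means with 1 CPM added to each mean, which understates those of low genes, and a gene is counted as higher or lower from 2-fold on that scale. Of the 78 members, 75 passed the filter. HSPB2, HSPA12B and DNAJC22 did not, and averaged under 1 CPM in all 3 groups. Another 15 passed the filter but averaged under 10 CPM in every group. Of these, DNAJB13 stood at -1.14 and -1.26 from GV, or -0.47 and -0.60 without GV replicate 9. Without it CCT6B, HSPA12A and HSPB3 after IVM and DNAJC25 after CNP_IVM, all low genes, passed 2-fold lower, at -1.19, -1.12, -1.02 and -1.13. HSPB11 is an older symbol of IFT25 in RefSeq. DNAJB9, an ER J-domain gene, was not analysed here.

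Maturation in either system went with lower shares of the heat-inducible HSP70 and HSP40 genes HSPA1A and DNAJB1, of HSPBP1, of several CCT subunits and of the mitochondrial J-domain genes DNAJA3, DNAJC15 and DNAJC30. The ER chaperones HSP90B1, PDIA6 and PDIA3, the exchange factor HSPA4L and the membrane co-chaperone DNAJB14 were higher. In IVM against GV, 9 of 75 members (12%) were higher by 2-fold or more and 21 (28%) lower. Of all 11852 genes past the filter, 15.9% were higher and 33.0% lower by the same rule, so the members' shares lay near those of all genes. In CNP_IVM against GV, 10 were higher and 26 lower (13.3% and 34.7%), beside 15.3% and 42.0% of all genes. In CNP_IVM against IVM, 2 were higher and 7 lower (2.67% and 9.33%), beside 1.86% and 14.8% of all genes. Every IVM oocyte lay above every GV oocyte for 10 members and below for 15, beside 11.5% and 19.9% of all genes. For CNP_IVM against GV these were 14 and 25 members, beside 12.9% and 28%. Both comparisons with GV share the GV oocytes, and IVM against GV shares the IVM oocytes with CNP_IVM against IVM.

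These splits depend on scaling, and the median of all genes was itself below zero: -0.28, -0.61 and -0.28 on the log2 scale for the 3 comparisons in the order above. With trimmed-mean (TMM) factors those medians were -0.05, -0.16 and -0.06, and with quantile normalization 0.15, 0.14 and 0.01. With TMM factors 14 members were higher and 13 lower in IVM against GV, and 22 higher and 20 lower in CNP_IVM against GV, and 3 higher and 3 lower in CNP_IVM against IVM. With quantile normalization these were 14 and 16, 16 and 22, and 2 and 2. List medians are therefore given relative to the median of all genes in the same comparison. On that footing all members stood at 0.03, 0.13 and 0.01 in the same order, and with quantile normalization at -0.13, -0.16 and -0.04.

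**Figure D1:**
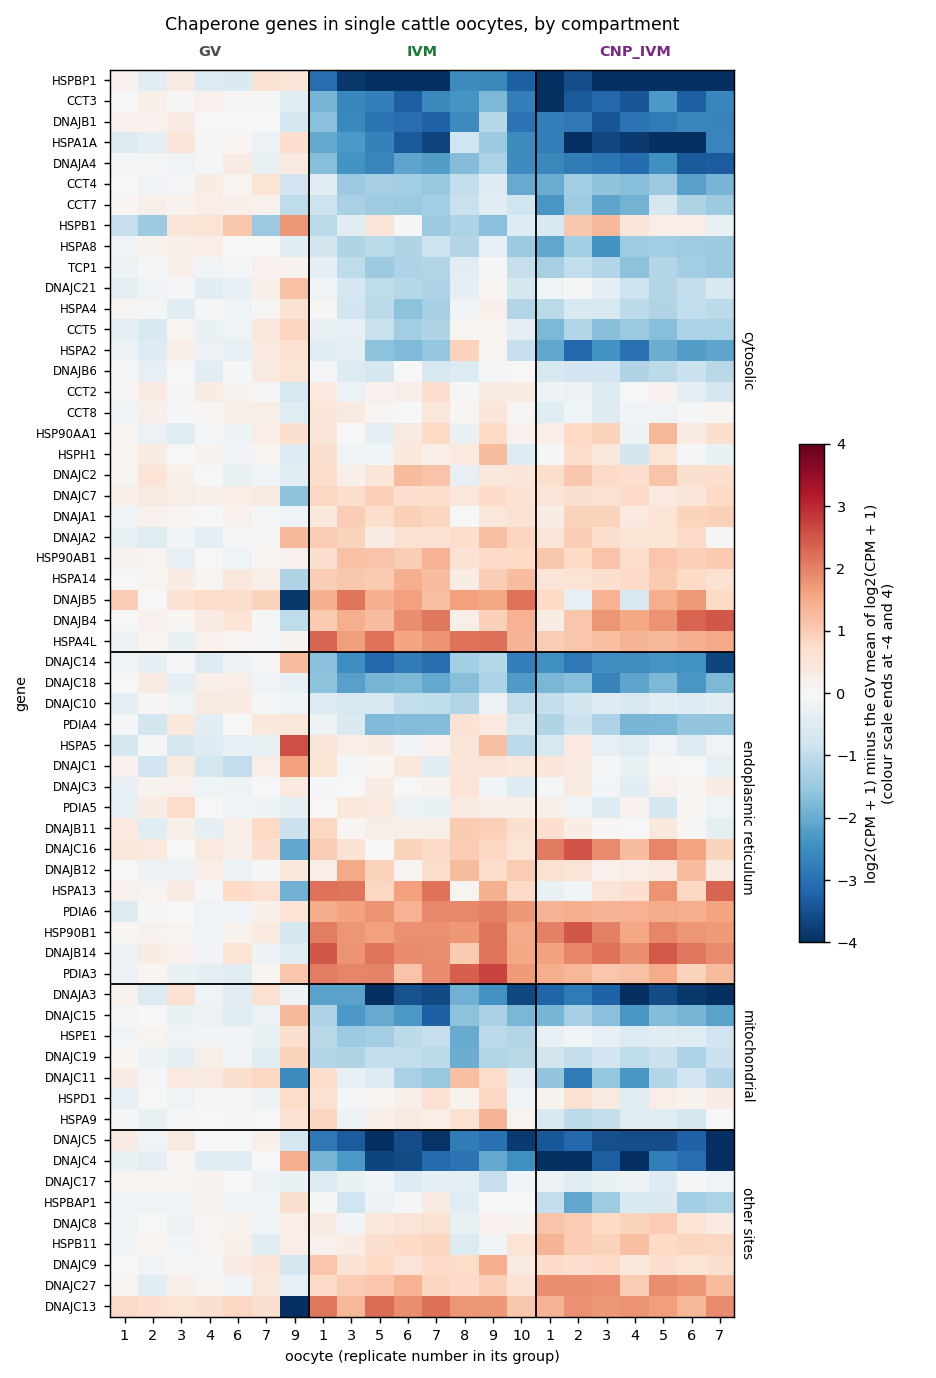
Rows are the 60 members past the filter that averaged at least 10 CPM in at least 1 group, ordered within each compartment by the IVM against GV difference, and columns are the 22 oocytes with their replicate numbers. Colour is log2(CPM + 1) minus the mean of that value over the GV oocytes: HSPBP1, DNAJB1 and DNAJA3 are blue in every matured oocyte, HSP90B1 and PDIA6 red, and GV replicate 9 departs from the other GV oocytes in many rows.

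By compartment, mitochondrial members were lowest against all genes. Of all genes 15.9% were higher and 33.0% lower in IVM against GV, and 15.3% and 42.0% in CNP_IVM against GV. Of the 8 mitochondrial members, 0 were higher and 5 lower (62.5%), then 0 higher and 4 lower (50%), in the same order. Their median relative to all genes was -0.97 and -0.75 in that order, with ranges of -1.35 to -0.75 and -0.85 to -0.60 over the other scalings, pseudocounts, filters and group medians. ER members lay above all genes, with relative medians of 0.37 (0.0003 to 0.54) and 0.55 (0.26 to 0.65). Of 18, 5 were higher and 3 lower after IVM (27.8% and 16.7%). After CNP_IVM 5 were higher and 4 lower (27.8% and 22.2%). Cytosolic members stood at -0.29 (-0.50 to -0.08) after IVM, where 3 of 36 past the filter were higher and 10 lower (8.33% and 27.8%). Their median was thus below that of all genes, but so was their share of lower genes. After CNP_IVM cytosolic members stood at -0.06, a direction that turned within its range of -0.36 to 0.05. Of the 36, 2 were higher and 14 lower (5.56% and 38.9%). Members at other sites stood at 0.44 (0.14 to 0.49) and 0.36 (0.22 to 0.81). Of 13, 1 was higher and 3 lower (7.69% and 23.1%), then 3 higher and 4 lower (23.1% and 30.8%).

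**Figure D2:**
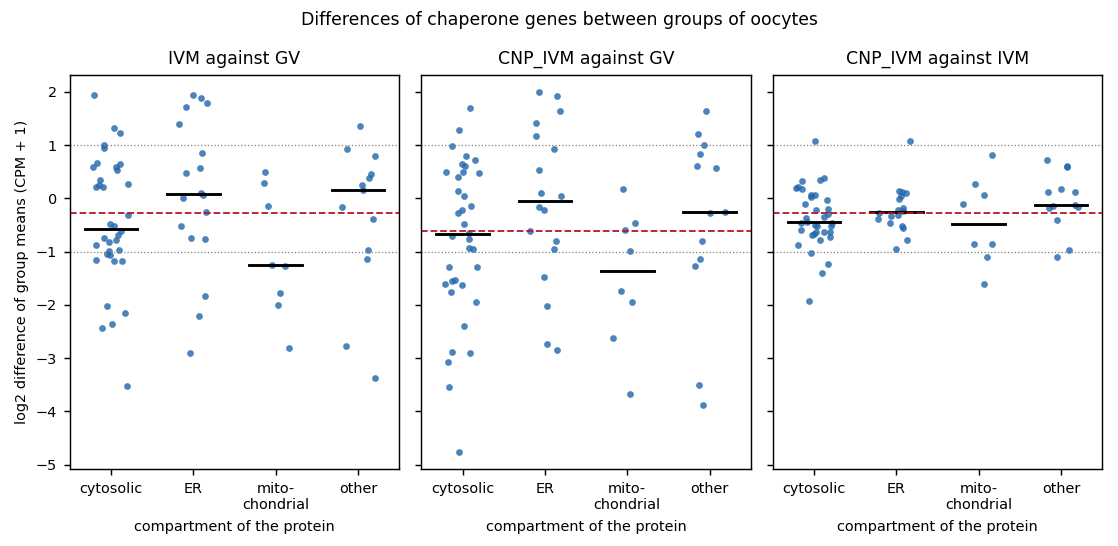
Each point is 1 of the 75 members past the filter, placed by the compartment of its protein, and the vertical axis is the log2 difference of group means (CPM + 1) in each of the 3 comparisons. Black bars are compartment medians, the red dashed line is the median of all 11852 genes and the dotted lines mark 2-fold: mitochondrial members lie low in both comparisons with GV, and most points of CNP_IVM against IVM lie within 2-fold.

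Among cytosolic HSP70 proteins, HSPA8 is the constitutive form and HSPA1A the classic heat-inducible one. HSPA8 was at 798 to 1304 CPM (median 1089) in GV oocytes, 395 to 874 CPM (median 496) after IVM and 206 to 423 CPM (median 404) after CNP_IVM. Its log2 difference was -0.98 in IVM and -1.62 in CNP_IVM against GV, and every CNP_IVM oocyte lay below every GV oocyte, while IVM replicate 9 overlapped the lowest GV oocyte, replicate 9. Without that GV oocyte the IVM difference was -1.04. Over the summed reads of a group HSPA8 in GV oocytes was at 1089.8 CPM (1085 to 1094), against 558 CPM (555 to 561) after IVM and 357 CPM (355 to 359) after CNP_IVM, where brackets hold exact 95% Poisson intervals that cover the counting of reads only. HSPA1A was at 77.6 to 182 CPM (median 109) in GV oocytes, 7.84 to 64.2 CPM (median 20.5) after IVM and 4.33 to 17.2 CPM (median 7.04) after CNP_IVM. No matured oocyte reached the lowest GV oocyte for HSPA1A, and the log2 differences were -2.16 and -3.55 from GV. HSPA1A and its neighbour HSPA1L are alike in sequence, and reads they share may be split between them. HSPA1L, at 4.58 to 13.03 CPM (median 7.04) in GV oocytes, stood -1.17 and -1.62 from GV.

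HSPA2, an HSP70 known for its role in male meiosis, showed a different course. It was at 58.5 to 128 CPM (median 72.9) in GV oocytes, 24.03 to 159 CPM (median 52.99) after IVM and 8.69 to 20.7 CPM (median 17.1) after CNP_IVM. IVM oocytes overlapped GV oocytes, at a difference of -0.48, while every CNP_IVM oocyte lay below every oocyte of both other groups (-2.40 from GV and -1.92 from IVM). HSPA14, an HSP70 that works at the ribosome, was at 29.6 to 95.6 CPM (median 75.7) in GV oocytes, 85.5 to 194 CPM (median 146) after IVM and 100.1 to 144 CPM (median 109.8) after CNP_IVM, with differences of 0.9993 and 0.64 from GV, just short of and under 2-fold. All 7 CNP_IVM oocytes, and 7 of 8 IVM oocytes, lay above the highest GV oocyte for HSPA14.

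The exchange factors of the HSP110 family, HSPA4, HSPA4L and HSPH1, release ADP from HSP70 and stood apart from each other. HSPA4L was at 49.8 to 67.99 CPM (median 64.9) in GV oocytes, 158 to 308 CPM (median 246) after IVM and 122 to 176 CPM (median 151) after CNP_IVM. It was higher in every matured oocyte than in every GV oocyte, by 1.95 after IVM and 1.28 after CNP_IVM. Its paralog HSPA4 was at 101 to 210.4 CPM (median 134) in GV oocytes, 43.7 to 159.7 CPM (median 74.1) after IVM and 59.8 to 90.2 CPM (median 66.9) after CNP_IVM, differences of -0.62 and -0.96, with the highest GV value in replicate 9. HSPH1 was at 46.5 to 85.004 CPM (median 75.1) in GV oocytes, 47.9 to 168 CPM (median 87.97) after IVM and 41.6 to 114 CPM (median 67.5) after CNP_IVM, and all 3 groups overlapped. HSPBP1, an exchange factor of another fold that also restrains the ubiquitin ligase CHIP, gave the lowest log2 differences from GV of any member. HSPBP1 was at 102 to 225 CPM (median 173) in GV oocytes, 2.13 to 25.4 CPM (median 12.2) after IVM and 0.868 to 12.1 CPM (median 5.09) after CNP_IVM. Every matured oocyte lay below every GV oocyte, at -3.52 and -4.75. Over the summed reads HSPBP1 in GV oocytes was at 163 CPM (161 to 164), against 13.8 CPM (13.4 to 14.3) after IVM and 4.99 CPM (4.72 to 5.26) after CNP_IVM.

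**Figure D3:**
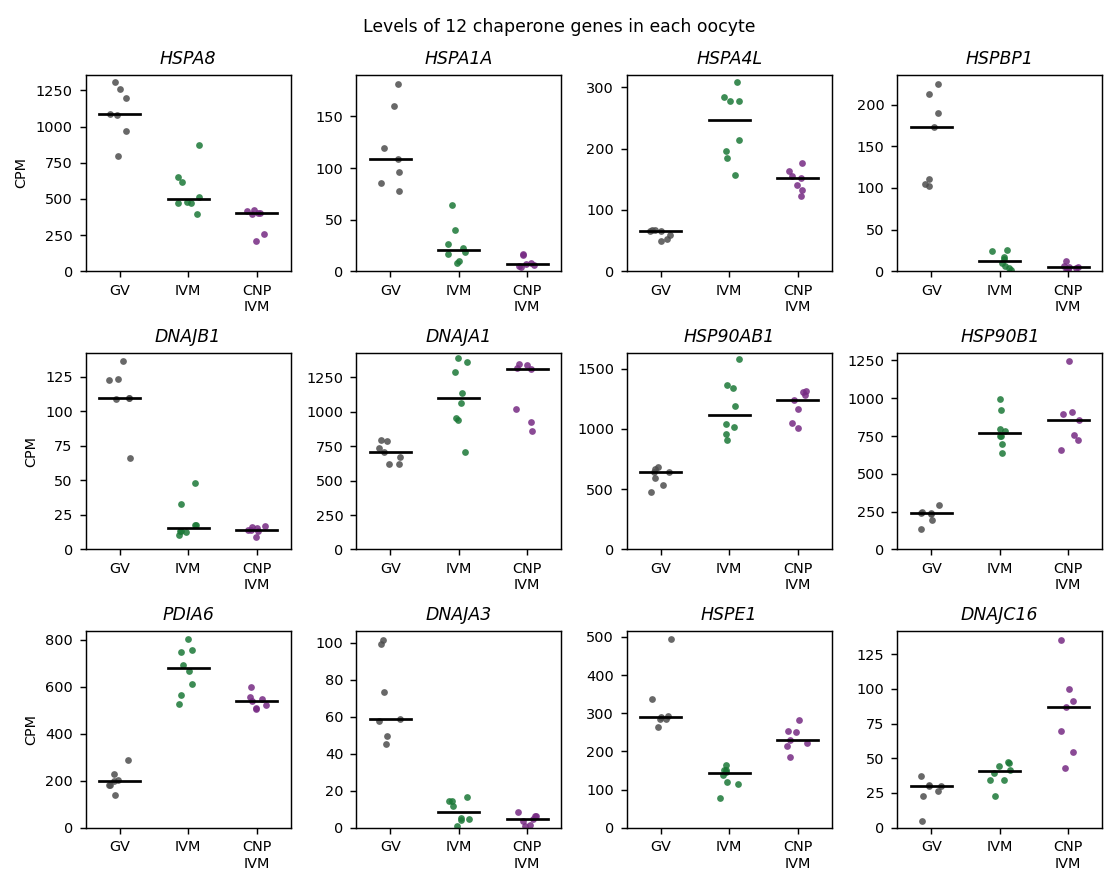
Each point is 1 oocyte (7 GV, 8 IVM and 7 CNP_IVM), the vertical axis is CPM from 0, and black bars are group medians for 12 members named in the text. HSPA8, HSPA1A, HSPBP1, DNAJB1 and DNAJA3 are highest in GV, HSPA4L, HSP90B1 and PDIA6 are highest after maturation, and HSPE1 and DNAJC16 differ between the culture systems.

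The cytosolic J-domain genes divided. DNAJB1, the heat-inducible HSP40, was at 65.9 to 136 CPM (median 109.9) in GV oocytes, 10.62 to 48.3 CPM (median 15.4) after IVM and 9.18 to 17.01 CPM (median 14.3) after CNP_IVM, so that every matured oocyte lay below every GV oocyte (-2.36 and -2.88 from GV). DNAJA4, a farnesylated relative of DNAJA1, was at 140.3 to 220.3 CPM (median 163) in GV oocytes, 26.7 to 71.9 CPM (median 37.8) after IVM and 15.9 to 30.8 CPM (median 22.3) after CNP_IVM, also without overlap with GV (-2.02 and -2.91). DNAJA1 itself, a general partner of HSPA8, was at 619 to 797 CPM (median 709.9) in GV oocytes, 709 to 1390.1 CPM (median 1098) after IVM and 861 to 1348 CPM (median 1310.2) after CNP_IVM. It was higher by 0.65 and 0.72, under 2-fold, and only the lowest IVM oocyte, replicate 8, overlapped GV. DNAJB4 was at 14.4 to 44.2 CPM (median 31.9) in GV oocytes, 36.5 to 134 CPM (median 76.7) after IVM and 36.99 to 172 CPM (median 106) after CNP_IVM, higher by 1.32 and 1.70, with some overlap. DNAJB5 was at 0 to 27.5 CPM (median 22.8) in GV oocytes, 32.5 to 64.6 CPM (median 42.7) after IVM and 8.22 to 46.5 CPM (median 24.5) after CNP_IVM, and every IVM oocyte lay above every GV oocyte. The difference was 1.22 after IVM and 0.49 after CNP_IVM. GV replicate 9 had no DNAJB5 read, and with group medians in place of means the IVM difference was 0.88.

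With all oocytes, other cytosolic J-domain genes were under 2-fold from GV in both systems. DNAJC7, which carries clients between HSP70 and HSP90, was at 43.6 to 177 CPM (median 160.2) in GV oocytes, 187 to 263 CPM (median 219) after IVM and 178 to 235 CPM (median 207) after CNP_IVM and above every GV oocyte in every matured oocyte (0.60 and 0.49). DNAJC2, a ribosome-bound co-chaperone, stood at 0.59 and 0.80, and DNAJA2, a relative of DNAJA1, at 0.67 and 0.48. GV replicate 9 was at 117 CPM for DNAJA2 against 33.6 to 48.7 CPM in the others, and without it DNAJA2 stood at 1.0015 and 0.81. DNAJC21, of ribosome assembly, stood at -0.70 and -0.64, or -0.41 and -0.36 without that oocyte. DNAJB6, which keeps aggregation-prone proteins soluble, was at 145 to 283 CPM (median 187) in GV oocytes, 123 to 199 CPM (median 160.4) after IVM and 83.8 to 126 CPM (median 107) after CNP_IVM. Every CNP_IVM oocyte was below every GV oocyte for DNAJB6, at -0.94, while IVM oocytes overlapped GV at -0.32. DNAJB2, DNAJC12 and DNAJC24 averaged under 4 CPM in every group.

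All 3 HSP90 genes (HSP90AA1, HSP90AB1 and, in the ER, HSP90B1) had higher means than GV in both systems under every scaling tried. Cytosolic HSP90 has a pair of close paralogs, and reads from stretches they share may be split between the genes. HSP90AB1, the constitutive form, was at 479.8 to 684 CPM (median 641) in GV oocytes, 907 to 1578 CPM (median 1115) after IVM and 1005 to 1317 CPM (median 1239) after CNP_IVM. Every matured oocyte lay above every GV oocyte for HSP90AB1, at 0.95 and 0.98, just under 2-fold. With TMM factors these were 1.28 and 1.53, and the second was 1.007 without GV replicate 9. HSP90AA1, the inducible form, was at 519 to 1146 CPM (median 699) in GV oocytes, 568.1 to 1275 CPM (median 882) after IVM and 628 to 1829 CPM (median 1144) after CNP_IVM, with overlap of all groups and differences of 0.27 and 0.61.

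The CCT ring is built of 8 different subunits in each of its rings, encoded by TCP1, CCT2, CCT3, CCT4, CCT5, CCT6A, CCT7 and CCT8, with CCT6B as a second gene for the CCT6 position. Their transcripts did not differ from GV by a common factor. CCT3 was at 433 to 661 CPM (median 593) in GV oocytes, 58.2 to 164 CPM (median 94.7) after IVM and 35.3 to 117 CPM (median 59.7) after CNP_IVM, and every matured oocyte lay below every GV oocyte (-2.44 and -3.07). CCT8 was at 550.0 to 899 CPM (median 808) in GV oocytes, 773 to 1059 CPM (median 901) after IVM and 534 to 799 CPM (median 692) after CNP_IVM, with overlap and differences of 0.25 and -0.21. CCT2 was at 335 to 651 CPM (median 536) in GV oocytes, 437 to 825 CPM (median 626) after IVM and 328 to 579 CPM (median 442) after CNP_IVM, differences of 0.22 and -0.27, the latter turning to 0.26 with TMM factors. After IVM the mean of CCT3 was thus far below GV, while those of CCT2 and CCT8 were slightly above it.

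The other subunits lay between these. CCT4 was at 44.8 to 114 CPM (median 75.6) in GV oocytes, 18.3 to 56.1 CPM (median 29.3) after IVM and 16.5 to 28.5 CPM (median 22.7) after CNP_IVM, differences of -1.17 and -1.76. CCT7 was at 158 to 388 CPM (median 366) in GV oocytes, 116 to 236 CPM (median 153) after IVM and 63.8 to 201 CPM (median 117) after CNP_IVM, differences of -1.07 and -1.54, with its lowest GV value in replicate 9. TCP1 was at 228 to 301 CPM (median 246) in GV oocytes, 94.2 to 248 CPM (median 134) after IVM and 83.8 to 132 CPM (median 105) after CNP_IVM, differences of -0.77 and -1.29, and every CNP_IVM oocyte was below every GV oocyte. For CCT5, at 221 to 614 CPM (median 305) in GV oocytes, 128 to 367 CPM (median 264) after IVM and 97.4 to 152 CPM (median 122) after CNP_IVM, IVM oocytes lay within the range of GV and below it (-0.53), and CNP_IVM oocytes all lay below GV (-1.54). With TMM factors TCP1 and CCT5 stood at -0.74 and -0.95 in CNP_IVM against GV. At least 2-fold lower were 33.0% of all genes after IVM and 42.0% after CNP_IVM. Of the 9 genes, 4 (44.4%) and 7 (77.8%) were, and with TMM factors 1 and 4. Their median relative to all genes was -0.70 (-0.88 to -0.45) and -0.93 (-1.33 to -0.74), and their summed level was 2446 to 3181 CPM (median 3086) in GV, 1823 to 2797 CPM (median 2163) after IVM and 1272 to 1839.6 CPM (median 1594) after CNP_IVM.

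CCT6A was low throughout, at 0.269 to 21.96 CPM (median 0.614) in GV oocytes, 0 to 2.71 CPM (median 1.02) after IVM and 0 to 1.52 CPM (median 0) after CNP_IVM. Its highest value came from GV replicate 9, while the other GV oocytes were at 0.269 to 1.36 CPM, and without that oocyte the differences of CCT6A were 0.37 and -0.42 in place of -1.16 and -1.94. CCT6B was at 0 to 14.7 CPM (median 8.59) in GV oocytes. Reads that the CCT6 genes or their copies share may be split or dropped in the counting, so both values are uncertain.

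**Figure D4:**
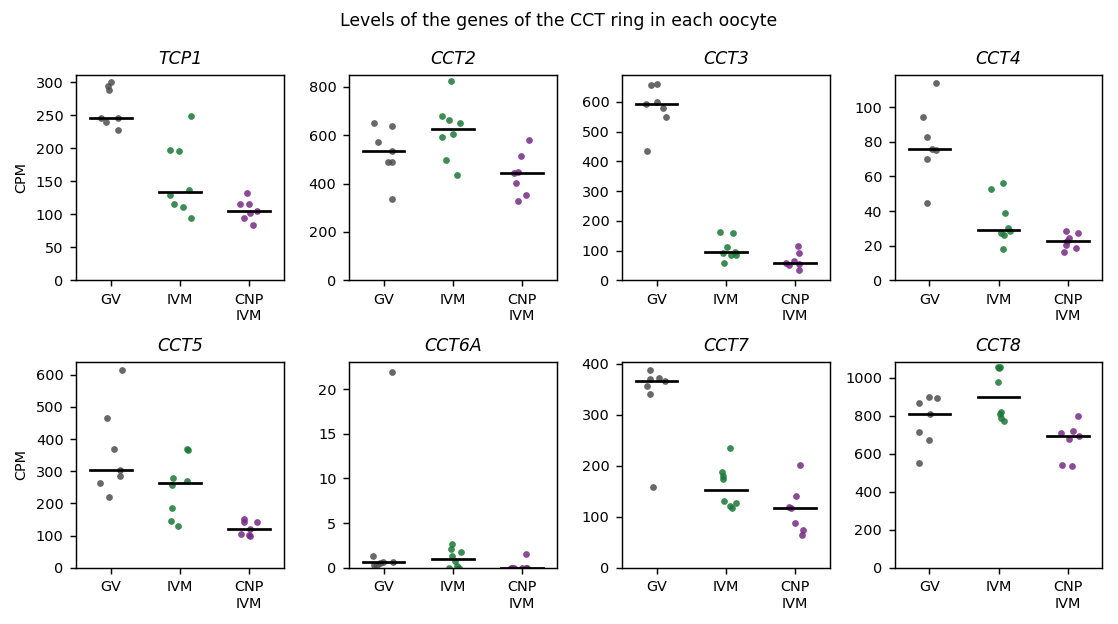
Each point is 1 oocyte, the vertical axis is CPM from 0 with its own scale for each of the 8 ring genes, and black bars are group medians. CCT3 is far lower in both matured groups, CCT2 and CCT8 overlap GV, CCT5 is lowest after CNP_IVM, and the single high CCT6A point is GV replicate 9.

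Small heat shock proteins hold unfolded proteins without ATP. HSPB1 was at 3.33 to 40.1 CPM (median 15.8) in GV oocytes, 2.80 to 15.9 CPM (median 6.05) after IVM and 7.001 to 28.5 CPM (median 13.6) after CNP_IVM, with all groups overlapping. Its mean was -1.04 from GV after IVM and 0.04 after CNP_IVM, and without GV replicate 9 (40.1 CPM) the former was -0.63. HSPB3 and HSPB6 averaged under 2 CPM in every group.

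In the ER, HSP90B1 (GRP94) folds secreted and membrane proteins, and the PDIA genes encode disulfide isomerases that act beside it. HSP90B1 was at 136 to 295 CPM (median 241) in GV oocytes, 635 to 995 CPM (median 769.9) after IVM and 657 to 1246 CPM (median 857) after CNP_IVM. Every matured oocyte lay above every GV oocyte, at 1.79 and 1.92. PDIA6, which reduces disulfide bonds in ER stress sensors, was at 138 to 290.0 CPM (median 198) in GV oocytes, 525.7 to 804 CPM (median 678) after IVM and 507 to 600.2 CPM (median 539.6) after CNP_IVM, again without overlap (1.72 and 1.41). PDIA3, which works on glycoproteins with calnexin and calreticulin, was at 35.4 to 104 CPM (median 40.4) in GV oocytes, 106 to 312 CPM (median 189) after IVM and 89.7 to 135 CPM (median 116) after CNP_IVM. For PDIA3 every IVM oocyte lay above GV (1.94), and after CNP_IVM (1.16) only GV replicate 9, at 104 CPM, reached the range of the matured oocytes.

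HSPA5 (BiP), the HSP70 of the ER, had a direction from GV that rested on 1 oocyte. It was at 42.02 to 415 CPM (median 54.4) in GV oocytes, 32.7 to 159.8 CPM (median 83.9) after IVM and 43.7 to 90.3 CPM (median 55.4) after CNP_IVM. GV replicate 9 was at 415 CPM and the other GV oocytes at 42.02 to 66.9 CPM. With all oocytes the differences were -0.25 and -0.81, and without GV replicate 9 they were 0.74 and 0.18, so both turned. PDIA4 was at 82.6 to 189.7 CPM (median 138) in GV oocytes, 40.2 to 207 CPM (median 90.7) after IVM and 37.7 to 76.5 CPM (median 45.5) after CNP_IVM, differences of -0.51 and -1.47, and every CNP_IVM oocyte lay below every GV oocyte. With TMM factors the second was -0.89. PDIA5 stayed within 2-fold (0.11 and -0.17), and PDIA2, at 1.74 to 19.2 CPM (median 9.67) in GV oocytes, stood at -2.90 and -2.85, with means of 0.366 and 0.415 CPM after maturation.

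The J-domain genes of the ER also divided. DNAJB14, an ER membrane co-chaperone used in the removal of misfolded membrane proteins, was at 1.91 to 4.94 CPM (median 2.79) in GV oocytes, 7.499 to 21.9 CPM (median 13.9) after IVM and 11.3 to 21.3 CPM (median 14.7) after CNP_IVM and above every GV oocyte in every matured oocyte (1.88 and 1.99). Its close relative DNAJB12 was at 33.1 to 54.3 CPM (median 36.98) in GV oocytes, 41.97 to 113 CPM (median 69.6) after IVM and 43.9 to 92.9 CPM (median 51.4) after CNP_IVM, 0.85 and 0.52 from GV. DNAJC18, of the same membrane group, was at 116 to 189 CPM (median 151) in GV oocytes, 30.4 to 62.1 CPM (median 40.96) after IVM and 22.5 to 45.2 CPM (median 41.03) after CNP_IVM. Every matured oocyte lay below every GV oocyte for DNAJC18 (-1.83 and -2.02) and for DNAJC14, an ER membrane co-chaperone of receptor export, at 42.7 to 148 CPM (median 55.9) in GV oocytes, 6.11 to 27.6 CPM (median 9.43) after IVM and 3.95 to 11.2 CPM (median 10.3) after CNP_IVM (-2.22 and -2.74). GV replicate 9 gave the highest DNAJC14 value, and without it the differences were -1.90 and -2.42.

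Other J-domain partners of BiP stayed under 2-fold. DNAJC10, which reduces disulfide bonds of proteins bound for degradation, was at 34.3 to 57.2 CPM (median 41.98) in GV oocytes, 19.1 to 37.2 CPM (median 25.1) after IVM and 22.2 to 32.8 CPM (median 30.5) after CNP_IVM, differences of -0.76 and -0.61, and every CNP_IVM oocyte lay below every GV oocyte. With TMM factors and quantile normalization the CNP_IVM difference of DNAJC10 was -0.08 and -0.04. DNAJC3, which also restrains the stress kinase PERK, stood at 0.06 and 0.05, and DNAJB11 at 0.48 and 0.10. The last turned to -0.01 without GV replicate 9. DNAJC1 stood at 0.01 and -0.22, and at 0.46 and 0.23 without that oocyte (88.6 CPM, against 13.3 to 35.1 CPM in the others). HSPA13, an HSP70-like ER protein, was at 0 to 5.56 CPM (median 3.27) in GV oocytes, 3.10 to 16.3 CPM (median 10.03) after IVM and 2.09 to 18.3 CPM (median 5.01) after CNP_IVM, differences of 1.39 and 0.93, with overlap, and with 5 CPM added in place of 1 the former was 0.88. DNAJC16 is described below with the culture systems.

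In mitochondria, HSPD1 (HSP60) and HSPE1 (HSP10) form a chamber in which imported proteins fold, and the genes are direct neighbours in RefSeq's cattle assembly ARS-UCD2.0. Their transcripts parted. HSPE1 was at 264 to 495 CPM (median 291) in GV oocytes, 76.9 to 164 CPM (median 142) after IVM and 185 to 283 CPM (median 229) after CNP_IVM. Every IVM oocyte lay below every GV oocyte for HSPE1 (-1.27), and CNP_IVM oocytes overlapped GV (-0.46). HSPD1 was at 30.2 to 63.5 CPM (median 36.05) in GV oocytes, 34.4 to 68.8 CPM (median 43.04) after IVM and 26.8 to 58.7 CPM (median 45.9) after CNP_IVM, with all groups overlapping and differences of 0.29 and 0.18. With TMM factors HSPE1 stood at -0.95 and 0.11. GV replicate 9 was the highest GV oocyte for both, at 495 and 63.5 CPM.

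HSPA9 (mortalin), the mitochondrial HSP70 that pulls proteins through the import channel, was at 48.9 to 91.99 CPM (median 58.4) in GV oocytes, 52.4 to 158 CPM (median 75.3) after IVM and 29.001 to 60.6 CPM (median 38.7) after CNP_IVM. It overlapped GV in both systems, with differences of 0.49 and -0.60. The latter was -0.03 with TMM factors and -0.09 with quantile normalization. The mitochondrial J-domain genes differed among themselves. DNAJC11 overlapped GV after IVM (-0.14) and after CNP_IVM (-1.75). After CNP_IVM, at 3.27 to 16.8 CPM, the overlap was with GV replicate 9 alone, at 4.28 CPM. The other GV oocytes were at 28.5 to 52.4 CPM for DNAJC11. DNAJA3 was at 45.3 to 101 CPM (median 58.7) in GV oocytes, 1.06 to 16.7 CPM (median 8.35) after IVM and 0.873 to 8.53 CPM (median 4.65) after CNP_IVM, and every matured oocyte lay below every GV oocyte (-2.82 and -3.67). DNAJC19, of the import motor, was at 32.97 to 86.1 CPM (median 42.3) in GV oocytes, 10.9 to 23.4 CPM (median 20.6) after IVM and 18.9 to 27.2 CPM (median 25.1) after CNP_IVM, also without overlap (-1.24 and -0.98). With TMM factors its difference after IVM was -0.91. DNAJC15, a relative of DNAJC19, was at 20.1 to 70.6 CPM (median 24.3) in GV oocytes, 2.03 to 11.4 CPM (median 6.83) after IVM and 4.803 to 10.7 CPM (median 7.19) after CNP_IVM, without overlap (-1.99 and -1.94, or -1.66 and -1.61 without GV replicate 9 at 70.6 CPM). DNAJC30, at 6.06 to 14.2 CPM (median 8.84) in GV oocytes, stood at -1.77 and -2.62.

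Summed levels put these together as shares of the library. Mitochondrial members summed to 548 to 883 CPM (median 574) in GV, 268 to 474 CPM (median 319.9) in IVM and 316 to 417 CPM (median 369) in CNP_IVM oocytes. GV replicate 9 was the highest at 883 CPM, the other GV oocytes lay at 548 to 584 CPM, and no matured oocyte reached that range. HSPE1 alone averaged 321, 133 and 234 CPM of mean sums of 616, 338 and 365 CPM in GV, IVM and CNP_IVM oocytes, so these sums follow that gene in large part. ER members summed to 1288 to 1915 CPM (median 1448), 2095 to 3229 CPM (median 2442) and 1989 to 2775 CPM (median 2178) in the same order, so every matured oocyte lay above every GV oocyte. The higher ER sums rest on a few abundant genes. HSP90B1 averaged 228, 791 and 864 CPM in that order, PDIA6 203, 670 and 540 CPM, and PDIA3 50.7, 197 and 115 CPM. Of the 18 ER members, 3 were at least 2-fold lower after IVM and 4 after CNP_IVM, so the sum does not describe them all. Cytosolic members summed to 7286 to 8193 CPM (median 7725), 6418 to 8799 CPM (median 7369) and 5699.6 to 7713 CPM (median 6763), and overlapped. The 78 members together made up 9923 to 11220.3 CPM (median 10604), 10149 to 13331 CPM (median 10734) and 9003 to 11346 CPM (median 10296), about 1% of each library.

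**Figure D5:**
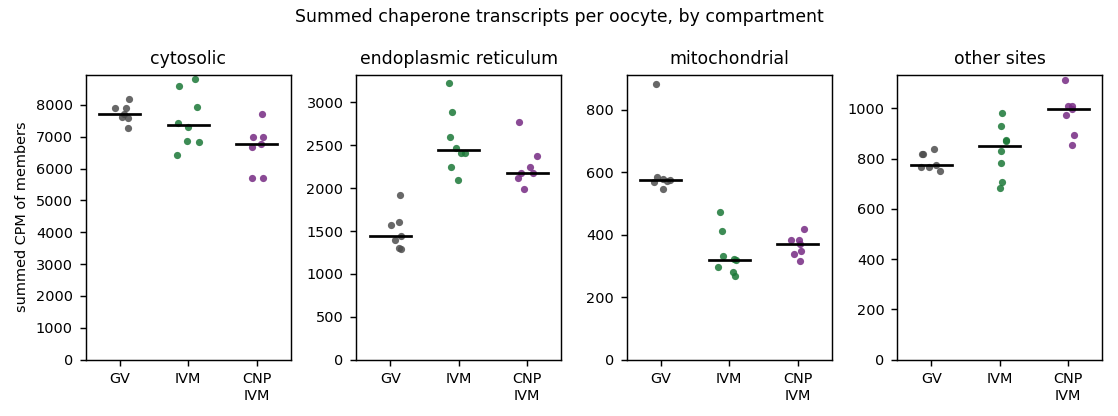
Each point is the summed CPM of all members of a compartment in 1 oocyte, with black bars at group medians and axes from 0. ER sums are higher in every matured oocyte than in every GV oocyte, mitochondrial sums are lower, cytosolic sums overlap, and the GV oocyte with the highest mitochondrial sum is replicate 9. Sums lean on abundant members, such as HSP90B1 and PDIA6 in the ER and HSPE1 in mitochondria.

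Of the members at other sites, DNAJC5 and DNAJC4 were low after maturation. DNAJC5, the cysteine string protein of secretory vesicles, was at 25.5 to 54.4 CPM (median 42.7) in GV oocytes, 1.61 to 5.19 CPM (median 2.99) after IVM and 1.43 to 3.95 CPM (median 2.79) after CNP_IVM (-3.38 and -3.51). DNAJC4 was at 28.4 to 108 CPM (median 32.9) in GV oocytes, 2.13 to 10.1 CPM (median 5.27) after IVM and 0.0514 to 4.91 CPM (median 1.29) after CNP_IVM (-2.77 and -3.87). For both, every matured oocyte lay below every GV oocyte. DNAJC13, which remodels endosomes, was higher at 0.218 to 35.97 CPM (median 31.6) in GV oocytes, 43.1 to 96.03 CPM (median 71.4) after IVM and 51.1 to 76.02 CPM (median 68.02) after CNP_IVM (1.36 and 1.20). GV replicate 9 was at 0.218 CPM, and without it the CNP_IVM difference was 0.99. DNAJC27, a small GTPase with a J domain, was at 9.05 to 17.3 CPM (median 13.3) in GV oocytes, 19.2 to 33.97 CPM (median 24.3) after IVM and 26.3 to 47.8 CPM (median 47.2) after CNP_IVM and without overlap with GV (0.92 and 1.64).

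On the CPM scale the nuclear J-domain members DNAJC9, DNAJC8 and DNAJC17 were under 2-fold from GV, while HSPB11 and HSPBAP1 passed it after CNP_IVM. DNAJC9, a histone chaperone, was at 50.7 to 115 CPM (median 82.7) in GV oocytes, 105 to 228 CPM (median 141) after IVM and 110.2 to 142 CPM (median 131) after CNP_IVM (0.79 and 0.60). DNAJC8, of the spliceosome, was at 200.2 to 279.9 CPM (median 235) in GV oocytes, 189 to 356 CPM (median 276) after IVM and 299 to 512 CPM (median 434) after CNP_IVM, and every CNP_IVM oocyte lay above every GV oocyte (0.25 and 0.84). DNAJC17, also a splicing factor, stood at -0.40 and -0.28. HSPB11, a subunit of intraflagellar transport, was at 36.8 to 60.8 CPM (median 53.7) in GV oocytes, 34.2 to 94.2 CPM (median 69.6) after IVM and 89.99 to 132 CPM (median 98.1) after CNP_IVM (0.39 and 1.001), the latter at the edge of 2-fold and under it without GV replicate 1, 3 or 7 or CNP_IVM replicate 1 or 4. HSPBAP1 was at 54.9 to 98.9 CPM (median 56.9) in GV oocytes, 35.1 to 80.9 CPM (median 60.1) after IVM and 14.1 to 41.5 CPM (median 25.4) after CNP_IVM (-0.16 and -1.13), and the latter was -0.998 without GV replicate 9 and -0.57 with TMM factors.

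Between the culture systems most members overlapped. HSPE1 and HSPA2 were the members in which every CNP_IVM oocyte lay on one side of every IVM oocyte, 1 higher and 1 lower of 75, beside 1.38% and 2.6% of all genes. HSPE1 was higher in CNP_IVM than in IVM oocytes by a log2 difference of 0.81, under 2-fold, while its neighbour HSPD1 stood at -0.10. With TMM factors HSPE1 stood at 1.06, past 2-fold, and HSPD1 turned to 0.17. HSPA2 stood at -1.92, or -1.56 with TMM factors.

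The members at least 2-fold higher in CNP_IVM against IVM were DNAJC16 and HSPB1. DNAJC16, an ER membrane J-domain protein, was at 43.3 to 135 CPM (median 86.98) against 22.7 to 47.001 CPM (median 40.6) after IVM and 4.66 to 37.1 CPM (median 29.999) in GV oocytes. Its difference was 1.07 from IVM, where the lowest CNP_IVM oocyte overlapped, and 1.63 from GV without overlap. HSPB1 stood at 1.07 with overlap. Both lay close to the 2-fold limit, and their count as 2-fold depended on single oocytes. Without CNP_IVM replicate 2 the differences were 0.92 and 0.95, so that 0 members were 2-fold higher. Leaving out IVM replicate 5, 7 or 9 or CNP_IVM replicate 3 left 1.

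The members at least 2-fold lower were HSPA2, DNAJC11, HSPA1A, HSPBP1, DNAJC4, HSPA9 and CCT5. DNAJC11, of the bridge between the mitochondrial membranes, was at 3.27 to 16.8 CPM (median 9.24) against 9.47 to 68.8 CPM (median 22.6) after IVM, at -1.60, with GV oocytes at 4.28 to 52.4 CPM (median 38.2). HSPA9 stood at -1.10, HSPA1A at -1.39, HSPBP1 at -1.23, DNAJC4 at -1.10 and CCT5 at -1.02, each with overlap. With TMM factors HSPA2, DNAJC11 and HSPA1A stayed past 2-fold, and with quantile normalization HSPA2 and DNAJC11. Without IVM replicate 9 HSPA9 stood at -0.93, CCT5 at -0.92 and DNAJC4 at -0.998. On the CPM scale all 9 CCT genes had lower means in CNP_IVM than in IVM oocytes, between -1.02 for CCT5 and -0.30 for CCT6B, where the median of all genes was -0.28, and their median relative to all genes was -0.24 (-0.43 to -0.13).

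IVM oocytes were not alike. IVM replicate 9 was the highest IVM oocyte for 28 of the 75 members, and without it 4 members were 2-fold lower in CNP_IVM. The highest IVM values of HSPA1A, HSPA2 and DNAJC11 came from replicate 8, and those of HSPA4, HSPA5, HSPA9 and PDIA3 from replicate 9. IVM replicates 1, 8 and 9 had 10653 to 10783 genes at 1 CPM or more, and the other IVM oocytes 9431 to 10434. Among CNP_IVM oocytes replicate 2 was the highest for 24 members, HSP90B1 among them. Over members that averaged at least 10 CPM, the median coefficient of variation between oocytes was 25.1% in GV, 26.9% in IVM and 20.1% in CNP_IVM.

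Partner genes that work with chaperones were described from a list of 90, of which 86 passed the filter. After IVM 11 were higher than in GV and 34 lower (12.8% and 39.5%), and after CNP_IVM 10 and 42 (11.6% and 48.8%). Between the culture systems 0 were higher and 15 lower after CNP_IVM (0% and 17.4%). These shares, and those of the sublists below, stand beside the same background of all genes as above. Of all genes 15.9% were higher and 33.0% lower after IVM, and 15.3% and 42.0% after CNP_IVM. Between the culture systems these were 1.86% and 14.8%. The list's median relative to all genes was -0.30, -0.37 and 0.05.

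The transcription factor of the heat shock response, HSF1, was at 27.02 to 69.4 CPM (median 39.01) in GV oocytes, 2.53 to 21.02 CPM (median 7.75) after IVM and 0.919 to 5.71 CPM (median 2.88) after CNP_IVM, without overlap with GV (-2.13 and -3.36). XBP1, the transcription factor of the unfolded protein response that is spliced by IRE1, was at 51.97 to 131 CPM (median 77.5) in GV oocytes, 4.91 to 25.3 CPM (median 8.97) after IVM and 2.91 to 5.26 CPM (median 3.50) after CNP_IVM (-2.61 and -4.15), also without overlap. The ER stress sensors PERK and ATF6 lay on the other side of GV. EIF2AK3, the gene of PERK, was at 0.0545 to 7.95 CPM (median 6.27) in GV oocytes, 14.9 to 38.4 CPM (median 26.4) after IVM and 16.2 to 32.1 CPM (median 25.8) after CNP_IVM (2.05 and 1.93). ATF6 was at 8.96 to 17.5 CPM (median 15.9) in GV oocytes, 23.9 to 45.5 CPM (median 39.6) after IVM and 37.03 to 51.3 CPM (median 48.4) after CNP_IVM (1.28 and 1.58). For both, no matured oocyte fell within the GV range. Of 14 genes of stress transcription and signalling, 3 were higher and 5 lower after IVM (21.4% and 35.7%). After CNP_IVM 2 were higher and 5 lower (14.3% and 35.7%).

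HSP90 co-chaperones went both ways. STIP1 (HOP), which joins HSP70 to HSP90, was at 235 to 659.9 CPM (median 553) in GV oocytes, 57.5 to 170.0 CPM (median 85.9) after IVM and 40.6 to 78.3 CPM (median 59.1) after CNP_IVM and without overlap (-2.29 and -3.15). NUDC was at 98.5 to 171 CPM (median 125) in GV oocytes, 18.3 to 58.9 CPM (median 31.2) after IVM and 16.03 to 30.6 CPM (median 26.2) after CNP_IVM (-1.98 and -2.42). PTGES3 (p23), which stabilises closed HSP90, was at 25.9 to 53.9 CPM (median 33.3) in GV oocytes, 72.2 to 113 CPM (median 94.5) after IVM and 75.2 to 106 CPM (median 103) after CNP_IVM, higher without overlap (1.43 and 1.42). FKBP5 stood at 1.31 and 1.21. Of 13 such genes, 2 were higher and 4 lower after IVM (15.4% and 30.8%). After CNP_IVM 2 were higher and 8 lower (15.4% and 61.5%). Among 11 HSP70 partners, STUB1, the ligase CHIP that tags chaperone clients, was at 45.7 to 143 CPM (median 53.3) in GV oocytes, 9.47 to 65.9 CPM (median 33.8) after IVM and 4.15 to 13.4 CPM (median 6.78) after CNP_IVM (-1.18 and -3.23, and -2.05 between the systems), with overlap between IVM and GV. The IVM difference of STUB1 was -0.95 without GV replicate 9, -0.94 with TMM factors, -0.97 with quantile normalization and -0.64 with group medians. HYOU1, the exchange factor of BiP, stood at 1.42 and 1.24, and BAG3 at -2.39 after CNP_IVM.

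Prefoldin passes actin and tubulin to the CCT ring, and TBC genes encode tubulin cofactors. Of 13, 0 were higher and 7 lower after IVM (0% and 53.8%). After CNP_IVM 1 was higher and 6 lower (7.69% and 46.2%). PFDN5 was at 237 to 333 CPM (median 289.8) in GV oocytes, 24.5 to 52.4 CPM (median 30.5) after IVM and 30.1 to 40.97 CPM (median 37.3) after CNP_IVM, without overlap with GV (-2.94 and -2.97), and PFDN1 stood at -2.57 and -2.02, while PFDN4, the 1 higher, stood at 0.15 and 1.07. The latter was 0.9955 without GV replicate 9 and 0.97 without CNP_IVM replicate 1. TBCD stood at -1.65 and -2.72.

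Of 21 other ER folding genes, 5 were higher and 5 lower after IVM (23.8% each). After CNP_IVM 3 were higher and 8 lower (14.3% and 38.1%). The lectin chaperones differed. Membrane-bound CANX was at 85.1 to 149.9 CPM (median 95.1) in GV oocytes, 203 to 407 CPM (median 254) after IVM and 218 to 307 CPM (median 242) after CNP_IVM, higher without overlap (1.38 and 1.23). Soluble CALR was at 132 to 2062 CPM (median 164) in GV oocytes, 45.6 to 185 CPM (median 83.6) after IVM and 48.8 to 84.2 CPM (median 62.98) after CNP_IVM, and GV replicate 9 was at 2062 CPM where the others were at 132 to 204 CPM, so that its differences of -2.13 and -2.69 were -0.74 and -1.31 without that oocyte. PPIB, an ER prolyl isomerase, was at 64.6 to 119 CPM (median 102) in GV oocytes, 1.72 to 11.9 CPM (median 6.86) after IVM and 1.75 to 12.8 CPM (median 3.94) after CNP_IVM, without overlap (-3.73 and -4.12). P4HB, the founding disulfide isomerase, stood at -1.09 after CNP_IVM, or -0.32 without GV replicate 9.

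Mitochondrial folding and protease genes lay low, as the mitochondrial members did: of 9, 0 were higher and 6 lower after IVM (0% and 66.7%). After CNP_IVM 0 were higher and 7 lower (0% and 77.8%). The protease subunit CLPP was at 250.0 to 381 CPM (median 305) in GV oocytes, 26.9 to 64.9 CPM (median 48.3) after IVM and 22.8 to 41.6 CPM (median 30.1) after CNP_IVM, without overlap (-2.67 and -3.24). TRAP1, the mitochondrial HSP90, was at 46.5 to 174 CPM (median 83.6) in GV oocytes, 6.55 to 58.9 CPM (median 21.2) after IVM and 8.10 to 12.3 CPM (median 9.38) after CNP_IVM (-1.83 and -3.19), and LONP1 stood at -2.54 and -2.43. Of J-domain genes with other names, SEC63, which drives ER import with BiP, stood at 0.85 (1.08 without GV replicate 9) and 1.49, and GAK, which uncoats clathrin vesicles, at -2.13 and -2.19.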

How the data were processed

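RNA of 22 single oocytes was read from poly(A) primed SMART-Seq v4 and Nextera XT libraries, per the labels' protocols. The deposited table calls its values TPM, but each was a whole multiple of 1 step per library (100% of values, within 0.01 read), so they were used as CPM, reads scaled to a library of 1000000. FastQC, Trim Galore 0.6.7, HISAT2 2.2.1, featureCounts 2.0.1 and edgeR, and the mouse build GRCm39, are named in the submitters' processing notes with no role. The gene names are cattle symbols, so no coordinates or sequences are given. Reads from stretches shared with paralogs or copies (HSPA1A and HSPA1L, HSP90AA1 and HSP90AB1, CCT6A and CCT6B, and HSPA8, which has processed copies) leave some uncertainty in these levels.

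Each group counted as 1 sample, since the labels name no donor or culture, so no p-value was computed and the recovered reads went into no count test. Group means were compared as log2 values with 1 CPM added, over 11852 genes that reached 1 CPM in 6 or more libraries. Libraries held 20159662 to 39340040 reads, 97.1% to 97.6% of them in listed genes, and 3 reads were 0.0763 to 0.149 CPM. No pair of libraries of a group agreed within sampling noise (smallest chi-square per degree of freedom 37.96). Samples were grouped by title. The difference and count steps were tested on simulated data.

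The members and lists were chosen with earlier results of these data known. Named by rule were, per comparison and compartment, up to 5 members in each direction past 2-fold that averaged 10 CPM or more in a group of the comparison, a set of genes whatever their values, and up to 2 partner genes per sublist and direction. Other members and partners were named after their values were seen. Of the 78 member names, 77 are current RefSeq symbols and 1 an older one. Alternatives were pseudocounts of 0.5 and 5 CPM, no filter, a mean of at least 10 CPM, TMM factors (edgeR 4.0.16 in R 4.3.3), quantile normalization, group medians and leaving out each oocyte. Other steps used Python 3.11.15, numpy 2.4.6, pandas 2.3.3 and scipy 1.17.1.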

Additional observations from a re-analysis of the deposited data

Results flagged for a closer look

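Of 153 sets of values (a member named by rule, or a sum, in the oocytes of 1 group), 17 had 1 oocyte far from the others by Dixon's ratio. Chance flags about 1 in 20 of independent sets with normal spread. These sets share oocytes, and the sums contain the members, so the 17 cannot be set against that rate. Other members, such as CCT6A, were not screened. Of the 17, 14 were GV replicate 9, the oocyte whose title and treatment label differ. In it DNAJB1 was lowest of the GV oocytes at 65.9 CPM, and so was DNAJC13 at 0.218 CPM. It was highest for the ER genes HSPA5 at 415 CPM, PDIA3 at 103.6 CPM and DNAJC14 at 147.5 CPM. Among mitochondrial genes it was highest for HSPE1 at 494.6 CPM, HSPD1 at 63.5 CPM, HSPA9 at 91.99 CPM, DNAJC15 at 70.6 CPM and DNAJC19 at 86.1 CPM, and for their sum at 883 CPM. It was also highest for HSPA4 at 210.4 CPM, HSPBAP1 at 98.9 CPM and DNAJC4 at 108 CPM. CNP_IVM replicate 2 was highest of its group for HSP90B1 at 1246 CPM and for HSPA5 at 90.3 CPM. IVM replicate 8 was lowest of its group for DNAJC19 at 10.9 CPM.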

How the results depend on the processing

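All differences below are log2 and all counts are members at least 2-fold higher or lower. The median member in IVM against GV, -0.25 as reported, turned to 0.0121 with a mean of at least 10 CPM, 0.001 with TMM factors, 0.0241 with quantile normalization and 0.0112 with group medians. Counts there became 14 higher (TMM and quantile) and 13 lower (TMM). In CNP_IVM against GV 22 (TMM) and 16 (quantile) were higher, and the median was -0.28 with 5 CPM added, -0.27 with a mean of at least 10 CPM, -0.026 with TMM and -0.0238 with quantile. In CNP_IVM against IVM 1 was higher and 4 lower with 5 CPM added, and 3 (TMM) and 2 (quantile) were lower. The ER median in CNP_IVM against GV turned to 0.0488 with a mean of at least 10 CPM, 0.49 with TMM and 0.47 with quantile, and that of members at other sites to 0.60, 0.26 and 0.90. In CNP_IVM against IVM, other sites turned to 0.12 (TMM) and 0.24 (quantile), ER to 0.0086 and the partner list to 0.0286 (both quantile). TMM and quantile scaling also raised the median of all genes, and the cause of the other changes was not tested.

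Leaving out each oocyte gave 9 to 11 higher, 20 to 23 lower and medians of -0.37 to -0.02 in IVM against GV. The ranges were 9 to 12, 24 to 29 and -0.58 to -0.36 in CNP_IVM against GV, and 0 to 2, 4 to 9 and -0.31 to -0.22 in CNP_IVM against IVM. List medians that crossed zero then ran from -0.0151 to 0.26 for other sites in IVM against GV, -0.11 to 0.15 for the ER in CNP_IVM against GV and -0.14 to 0.11 for other sites in CNP_IVM against IVM. Of genes named by rule and at least 2-fold apart, 8 of 48, 9 of 58 and 14 of 19 fell under 2-fold in some setting, and 0 turned. Members named otherwise were not in these counts. Among those, CCT6A turned from -1.16 to 0.37 in IVM against GV without GV replicate 9, and DNAJB13 went from -1.14 to -0.47. No paired analysis was possible because the results come from no test and no label ties equal replicate numbers together. Intervals and the limit of 3 reads cover counting error only.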
